A study of Mus musculus with 19 samples.

Results

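The genes described here are the 3 coactivators of the PGC-1 family (Ppargc1a, Ppargc1b and Pprc1), nuclear receptors through which they act (Esrra, Esrrg, Ppara, Ppard and Pparg), and Nrf1 and Tfam, factors of the mitochondrial programme that they drive. They were taken as every probe that the scanner files name after 1 of these 10 genes, which gave 18 of the 41174 probes other than controls, and 10 of 27786 gene names. Ppargc1b and Tfam had 3 probes each, Ppargc1a, Esrra, Esrrg and Nrf1 had 2 each, and Pprc1, Ppara, Ppard and Pparg had 1 each. Probes of a gene are numbered by their mean signal, with probe 1 the brightest, and as they read RNA of the same gene they are not independent.

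RNA was measured on 19 1-colour Agilent arrays. C2C12 cells, a line of mouse myoblasts, had been stably transfected with plasmids that carry wild-type human HDAC4 and HDAC5 (HDAC4&5, 6 arrays) or with empty plasmids (WT, 6 arrays). Both lines were selected in hygromycin B and geneticin, each at 500 µg/mL, and were harvested 48 h after seeding, before differentiation. The labels do not say whether a line is 1 clone. Soleus, a muscle rich in slow oxidative fibres, came from male mice aged 12 weeks after a fast of 5 h, and the groups were homozygous db +/+ mice of the C57BL6J strain (db, 4 arrays) and their heterozygous db -/+ littermates (Con, 3 arrays), so the controls also carry 1 db allele. The db mutation disables the long leptin receptor throughout the body. The study's methods give fewer biological replicates in a C2C12 group than there are arrays, and nothing says which arrays share a culture, so p-values measure the spread between these arrays, which may in part be technical.

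PGC-1 coactivators do not bind DNA themselves and are carried to promoters by transcription factors. In muscle, PGC-1α, the product of Ppargc1a, acts with the oestrogen-related receptors ERRα (Esrra) and ERRγ (Esrrg) on genes of the respiratory chain and the citrate cycle, with PPARα and PPARδ on fatty acid oxidation, and with NRF1 on Tfam, which packages and transcribes mitochondrial DNA. HDAC4 and HDAC5 are class IIa histone deacetylases that hold MEF2 factors in check, and MEF2 is an activator of Ppargc1a in muscle. The C2C12 comparison asks what an excess of both deacetylases does to this programme. The soleus comparison asks how the programme stands in an obese mouse, into which no deacetylase was introduced.

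A level is the log2 of the background-subtracted intensity of a probe minus the log2 of the 75th percentile of its array, so that a difference of 1 is a 2-fold change. Levels of different probes are not compared. That percentile was 401 to 1560 on C2C12 arrays, 141 to 220 on the 4 soleus arrays of 1 slide and 423 to 500 on the 3 of the other, and both soleus groups were on both slides. Between 46.8% and 57.5% of probes were well above background. Myoblast markers differed between the cell lines, and all 3 that could be tested (Myod1, Cdh15 and Myog) fell in HDAC4&5 cells, with Myod1 well above background on all 6 WT arrays and on 0 of the HDAC4&5 arrays, while 0 C2C12 arrays read Myf5 or Pax7 well above background. Of 10 muscle fibre markers, 8 were tested, 7 fell and 1 rose, and their summed level on the log2 scale was 6.03 to 6.95 on WT arrays and 0.01 to 0.40 on HDAC4&5 arrays. Of 4 fibroblast markers 3 rose and 1 fell, with a summed level of 5.38 to 5.76 on WT and 6.48 to 6.90 on HDAC4&5 arrays. The part of these marker differences in the C2C12 results was not tested. Mouse Hdac5 was higher in HDAC4&5 cells by 1.44 ± 0.26 (SE, limma, adjusted p = 0.000293) and Hdac4 differed by -0.03 ± 0.07 (adjusted p = 0.742). Between db and Con soleus Hdac5 differed by 0.33 ± 0.96 and Hdac4 by 0.25 ± 0.68 (limma, adjusted p = 0.966 and 0.964). The plasmids carry human genes and the probes were designed to mouse transcripts, and whether these probes also read the transgenes was not tested.

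In C2C12 cells the 3 PGC-1 coactivators parted ways, with Ppargc1a and Pprc1 higher and Ppargc1b lower in HDAC4&5 cells, and Pparg fell with Ppargc1b. Of the 18 probes, 16 were tested, those that every array of 1 group or the other read well above background. At an adjusted p of 0.05, 12 of the 16 passed, 5 higher and 7 lower. Across all 21477 probes tested 66.6% passed, 36.5% higher and 30.0% lower, so the number of member probes that passed was near the background. The groups did not overlap for 10 of the 16 probes, against 50.2% of all probes. The median difference of the 16 was -0.20 and that of all probes 0.08. With the deposited matrix in place of the scanner values, 39.2% of the calls over all probes were higher in HDAC4&5 cells, against 54.9% here.

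**Figure D1:**
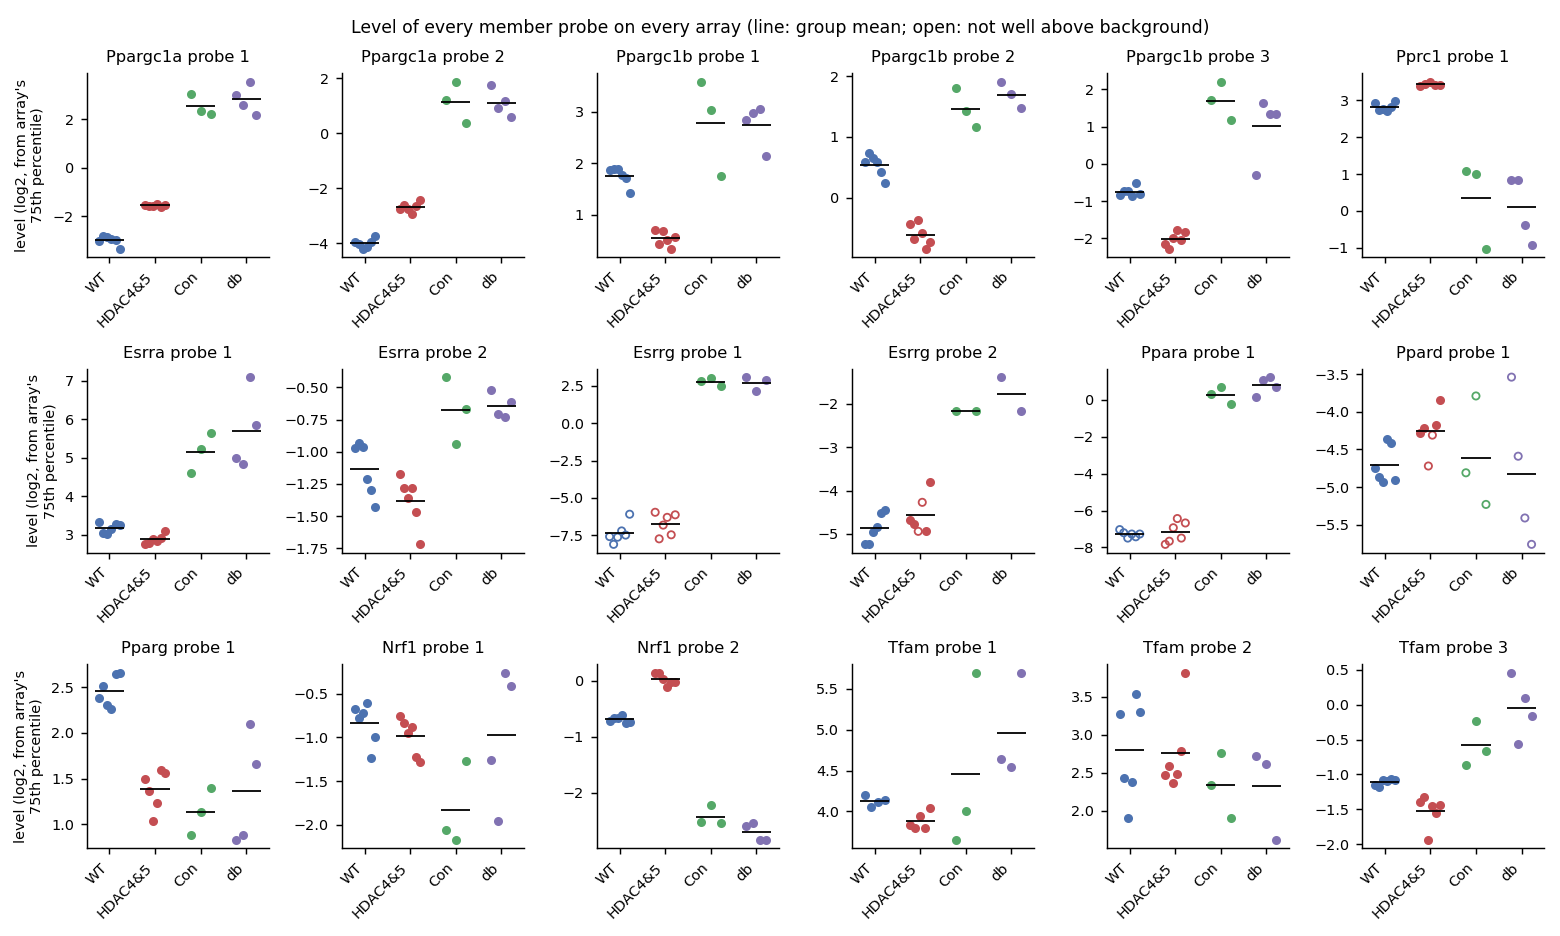
Level of each of the 18 member probes on each of the 19 arrays, on a log2 scale relative to the 75th percentile of the array (vertical axis), in the groups WT, HDAC4&5, Con and db. Points are arrays, lines are group means, open points are not well above background, and the panels show Ppargc1a rising and all 3 probes of Ppargc1b falling from WT to HDAC4&5 while Con and db overlap.

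Ppargc1a was low in WT cells and higher in HDAC4&5 cells. Probe 1 (mm9, chr5:51848928-51848987) had a level of -3.33 at the lowest, -2.93 at the median and -2.80 at the highest over the 6 WT arrays, and of -1.60, -1.54 and -1.47 over the 6 HDAC4&5 arrays. Every HDAC4&5 array was above every WT array. The difference was 1.43 ± 0.08 (SE, n = 6 and 6), which is 2.7-fold, with a 95% interval of 1.26 to 1.61 (limma, adjusted p = 3.73e-09). Probe 2 (chr5:51846897-51846956) gave the same picture, with WT from -4.21 to -3.73 (median -4.0), HDAC4&5 from -2.93 to -2.42 (median -2.70) and a difference of 1.32 ± 0.10 (adjusted p = 5.03e-08). The 250 bases before the start of Ppargc1a in RefSeq (GRCm38, minus strand, chr5:51567726-51567975) are shown because this gene had the largest rise among the members. The capitals mark ACGTCA, which is TGACGT read on the other strand, the core letters of a CREB site, 50 to 45 bases before the start.
Ppargc1a: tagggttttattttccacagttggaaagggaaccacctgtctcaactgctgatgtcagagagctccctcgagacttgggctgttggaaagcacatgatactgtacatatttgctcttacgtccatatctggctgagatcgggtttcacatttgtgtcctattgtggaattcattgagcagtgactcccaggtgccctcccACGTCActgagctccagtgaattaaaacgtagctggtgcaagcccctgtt
TGACGT was searched on both strands, and 6.47% of the 32851 windows of this length in the RefSeq table hold it. CTANNNNTAG, the letters of a MEF2 site, was not in this window. Bases beyond the windows were not searched, so this says nothing of the rest of the promoter.

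Ppargc1b encodes PGC-1β, which also acts with the ERRs on oxidative genes, and all 3 of its probes fell. At probe 1 (mm9, chr18:61458252-61458311) the WT arrays ranged from 1.42 to 1.90 (median 1.82) and the HDAC4&5 arrays from 0.34 to 0.70 (median 0.54). Probe 2 (chr18:61462321-61462380) ran from 0.24 to 0.73 (median 0.59) in WT and from -0.84 to -0.37 (median -0.63) in HDAC4&5 cells, and probe 3 (chr18:61456189-61456248) from -0.86 to -0.50 (median -0.77) and from -2.28 to -1.77 (median -2.02). The groups were apart at each probe, with HDAC4&5 below WT. The differences were -1.22 ± 0.09 at probe 1, which is 2.33-fold lower, -1.14 ± 0.10 at probe 2 and -1.27 ± 0.09 at probe 3 (limma, adjusted p = 7.81e-08, 3.14e-07 and 5.25e-08).

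Pprc1 encodes PRC, the PGC-1 relative that is induced by serum in dividing cells. Its probe (mm9, chr19:46147083-46147142) had WT levels of 2.72 to 2.97 (median 2.80) and HDAC4&5 levels of 3.38 to 3.51 (median 3.42) over 5 arrays, since the spot on the remaining array was marked as an outlier. The groups did not overlap, and the difference was 0.61 ± 0.06, which is 1.53-fold (limma, adjusted p = 2.44e-06).

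The balance between the coactivators can be read within an array, where the scaling of the array cancels. The level of Ppargc1a probe 1 minus that of Ppargc1b probe 1 averaged -4.73 ± 0.08 (SD, n = 6) on WT arrays, from -4.88 to -4.66, and -2.08 ± 0.13 on HDAC4&5 arrays, from -2.27 to -1.94. This difference moved by 2.65 toward Ppargc1a, which is 6.28-fold (exact permutation test, two-sided, p = 0.00216, adjusted p = 0.00648 over 12 pairs of probes). Pprc1 moved against Ppargc1b by 1.83, which is 3.56-fold, and Ppargc1a against Pprc1 by 0.82, which is 1.77-fold. Both had the same exact permutation p of 0.00216, which is the smallest that these numbers of arrays allow. As Ppargc1a and Pprc1 rose and Ppargc1b fell on the same arrays, each without overlap, their differences from Ppargc1b had to separate the groups. The p-values of those differences were thus fixed in advance and add nothing to the calls.

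**Figure D2:**
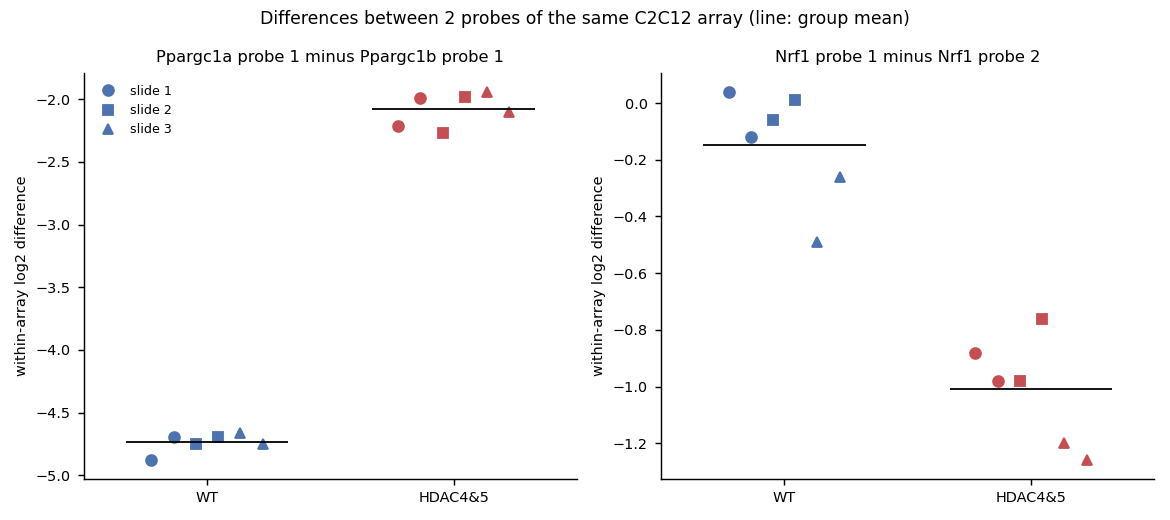
Difference in level between 2 probes of the same C2C12 array on a log2 scale (vertical axis), for Ppargc1a probe 1 minus Ppargc1b probe 1 and for Nrf1 probe 1 minus Nrf1 probe 2. Points are arrays, with a shape for each slide, and lines are group means, and Ppargc1a minus Ppargc1b lies at -4.88 to -4.66 on WT and at -2.27 to -1.94 on HDAC4&5 arrays.

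The ERR genes moved little in C2C12 cells. Esrra probe 1 (mm9, chr19:6985599-6985658) ran from 3.01 to 3.32 (median 3.19) in WT and from 2.75 to 3.10 (median 2.86) in HDAC4&5 cells. These ranges overlapped, and the difference was -0.30 ± 0.07 (limma, adjusted p = 0.0034). Probe 2 (chr19:6991170-6991229) ran from -1.43 to -0.93 (median -1.09) and from -1.72 to -1.17 (median -1.32), and its difference of -0.25 ± 0.11 did not pass (adjusted p = 0.0678) but did with the slide or the replicate number as a block (adjusted p = 0.00256 and 0.00336), and without HDAC4&5 replicate 1 or WT replicate 6 (-0.29 and -0.30, adjusted p = 0.0439 and 0.025). With arrays averaged by slide it did not pass (-0.25 ± 0.15, adjusted p = 0.208). Esrrg, the ERR of slow oxidative fibres, was at or near the detection limit. Its probe 1 (chr1:190038118-190038177) was not well above background on any C2C12 array and was not tested, and probe 2 (chr1:190035037-190035096) differed by 0.31 ± 0.21 (adjusted p = 0.217).

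Among the PPARs, Pparg, the receptor best known from fat cell development, was the clearest. Its probe (mm9, chr6:115440213-115440272, spotted 10 times on the array) ran from 2.26 to 2.66 (median 2.45) in WT and from 1.04 to 1.60 (median 1.43) in HDAC4&5 cells. The groups were apart, and Pparg fell by 1.08 ± 0.11 on the log2 scale, which is 2.12-fold lower (limma, adjusted p = 1.15e-06). Ppard, the fatty acid sensor of oxidative muscle, lay near the detection limit (chr17:28436596-28436655), from -4.93 to -4.36 (median -4.80) in WT and from -4.72 to -3.84 (median -4.25) in HDAC4&5 cells, with 4 of the 6 HDAC4&5 arrays well above background. Its difference was 0.45 ± 0.14 (adjusted p = 0.0148), which did not pass after normexp background correction (0.64, adjusted p = 0.101). Ppara, the fatty acid receptor of tissues that burn fat, was not well above background on any C2C12 array (chr15:85631955-85632014) and was not tested.

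Nrf1 encodes a factor that binds promoters of nuclear genes for mitochondrial proteins, and its probes disagreed. Probe 1 (mm9, chr6:30066141-30066200) ran from -1.24 to -0.61 (median -0.75) in WT and from -1.28 to -0.75 (median -0.91) in HDAC4&5 cells, and differed by -0.15 ± 0.12 (limma, adjusted p = 0.311; with the slide as a block 0.0259, with the replicate number 0.0354, with arrays averaged by slide 0.501). Probe 2 (chr6:30102521-30102580) ran from -0.75 to -0.62 (median -0.69) and from -0.12 to 0.14 (median 0.01), with no overlap, and rose by 0.71 ± 0.06, which is 1.64-fold (adjusted p = 1.16e-07). Read within an array, probe 1 minus probe 2 averaged -0.15 ± 0.20 (SD, n = 6) in WT and -1.01 ± 0.19 in HDAC4&5 cells (exact permutation test, p = 0.00216, adjusted p = 0.00648), so the probes did not change alike. In the files both are placed on chromosome 6, and which transcripts each reads was not tested.

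Tfam fell slightly at 2 of its 3 probes. Probe 1 (mm9, chr10:70691103-70691162) had levels of 4.20, 4.05, 4.12 and 4.14 on the 4 WT arrays with a usable spot and of 3.83, 3.79, 3.94, 3.80 and 4.04 on 5 HDAC4&5 arrays. All WT values were above all HDAC4&5 values, by little, and the difference of -0.25 ± 0.07 passed (limma, adjusted p = 0.0136) but did not when arrays were averaged by slide (-0.22, adjusted p = 0.158). Probe 3 (chr10:70688866-70688925) ran from -1.18 to -1.06 (median -1.09) in WT and from -1.94 to -1.33 (median -1.45) in HDAC4&5 cells, a difference of -0.41 ± 0.09 (adjusted p = 0.00128), which did not pass after normexp background correction (-0.21, adjusted p = 0.214).

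Probe 2 of Tfam was the least steady of the 3, with WT from 1.91 to 3.54 (median 2.85), HDAC4&5 from 2.37 to 3.82 (median 2.54) and a difference of -0.05 ± 0.31 (adjusted p = 0.901). The files place 21 of its 60 bases on the genome (mm9, chr10:70688212-70688232). Its sequence is printed with the 250 bases before the RefSeq start of Tfam (GRCm38, minus strand, chr10:71238045-71238294), because the probe matched letters of that window. The capitals mark the shared letters, a run of 39 that begins 146 bases before the start and a run of 21 that ends 86 bases before it, with 1 further base in the window between them.
Tfam probe 2: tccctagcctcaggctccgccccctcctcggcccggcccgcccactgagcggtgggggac
Tfam: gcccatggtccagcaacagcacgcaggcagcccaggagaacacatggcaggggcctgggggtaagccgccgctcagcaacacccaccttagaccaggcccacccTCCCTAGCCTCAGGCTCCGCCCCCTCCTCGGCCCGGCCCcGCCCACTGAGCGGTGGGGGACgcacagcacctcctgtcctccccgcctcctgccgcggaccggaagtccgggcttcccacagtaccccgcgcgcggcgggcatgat
The window also holds CCGGAAGT, the letters of a GABP site, 47 to 40 bases before the start, as do 2.88% of windows searched on both strands.

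**Figure D3:**
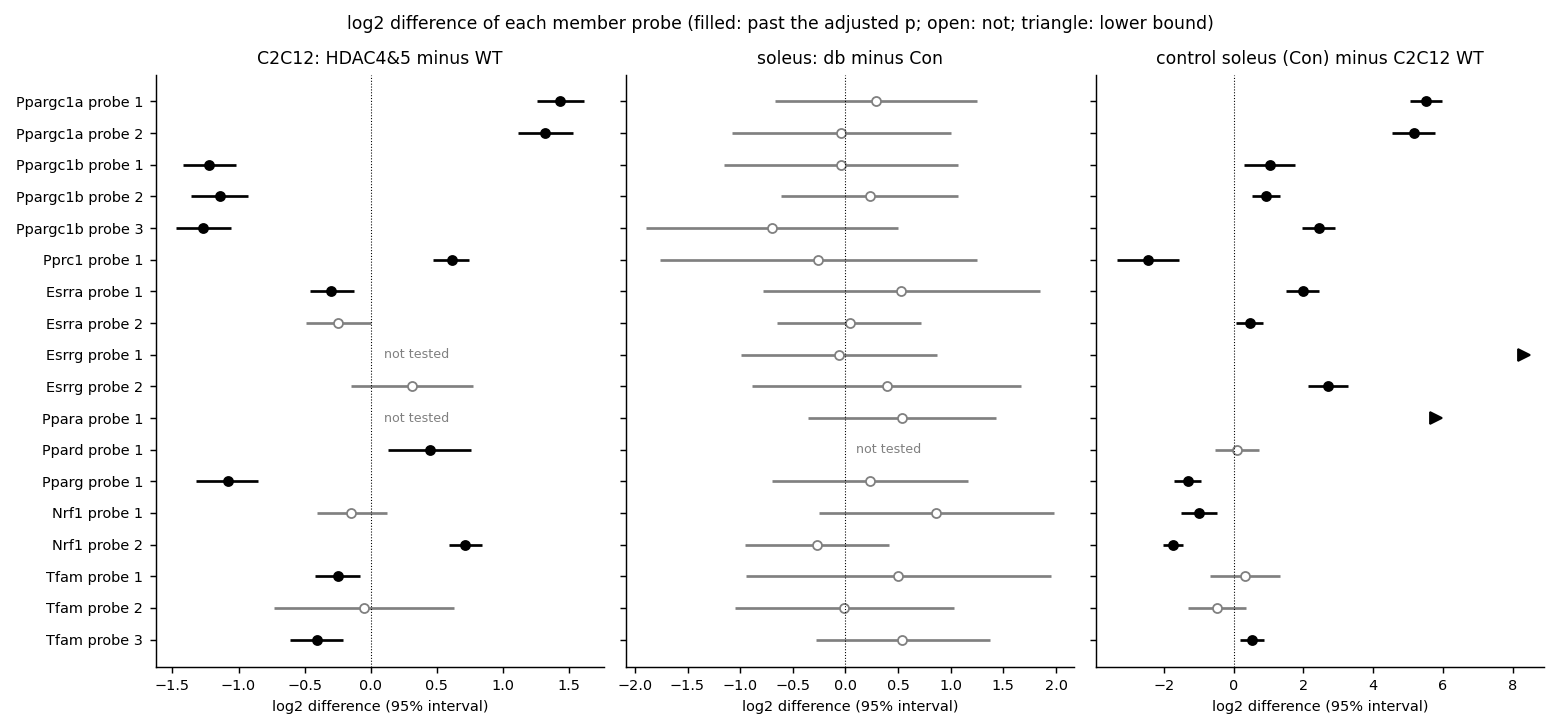
Difference in level of each member probe on a log2 scale (horizontal axis), with 95% intervals, for HDAC4&5 minus WT, db minus Con and Con minus WT. Filled points passed the adjusted p of 0.05, open points did not and triangles are lower bounds, and the soleus intervals of db minus Con all include 0.

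Each C2C12 slide held 2 WT and 2 HDAC4&5 arrays. For the 12 probes that passed, all 35 differences within a slide had the sign of the pooled difference. As these probes passed on the same arrays, this does not add to the calls. Among the 4 tested probes that did not pass, Tfam probe 2 changed sign between slides (-0.32, 0.28 and -0.11) and the others did not. Averaging the arrays of a group on a slide to 1 value, which leaves 3 against 3, kept 11 of the 12 past the threshold. Of all 21468 probes tested that way 11573 passed, beside 14293 of 21477 without averaging.

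Genes around the coactivators were read from lists drawn from known roles and chosen with earlier results of these data known, each gene by its brightest probe. Of 19 ERR and PGC-1α target genes of oxidative muscle 17 were tested, 0 rose and 9 fell, with a median difference of -0.38. The 52.9% that passed compares with 66.6% of all probes, of which 30.0% were lower. The 3 largest falls were those of Mb, the oxygen store myoglobin (-3.89, 14.8-fold lower), Cox7a1, the muscle form of a cytochrome oxidase subunit (-3.20, 9.21-fold lower), and Pdk4, the kinase that closes pyruvate dehydrogenase in fasting (-2.86, 7.24-fold lower), each without overlap (limma, adjusted p = 1.38e-14, 2.14e-13 and 7.86e-10). Mb is also among the muscle fibre markers. Ppargc1a rose in the same cells in which 0 of the tested genes of this list rose past the threshold. Atp5b, Cs and Mdh2 differed by 0.47, 0.39 and 0.32 without passing, and the others that did not pass went either way. These 3 probes were very bright and saturated spots were kept, so whether they could have shown a change was not tested.

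Of 27 PPAR target genes 20 were tested, 4 rose and 7 fell, with a median of -0.15, so that 11 of the 20 passed beside 66.6% of all probes. Fabp3, which carries fatty acids in muscle, differed by -4.89 (29.6-fold lower), Ucp2, an uncoupling protein relative, by -3.26 (9.6-fold lower) and Lpl, which frees fatty acids from lipoproteins, by -3.16 (8.91-fold lower). The adjusted p-values were 2.36e-14, 7.66e-12 and 8.11e-14 in limma, and the groups were apart for each gene.

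Of 21 genes of mitochondrial DNA replication, transcription and translation 20 were tested, 5 rose and 3 fell, and the median was 0.11. The 40.0% that passed lay below the 66.6% of all probes. With the slide as a block 14 of the 20 passed, beside 16390 of all 21477 probes. After normexp 4 passed, beside 10484 of all probes. Mterf2, a regulator of mitochondrial transcription, fell by 0.83, while Top1mt, the mitochondrial topoisomerase, rose by 0.68 and Mgme1, a mitochondrial exonuclease, by 0.54 (limma, adjusted p = 1.67e-05, 3.6e-06 and 0.0243). The Mgme1 groups overlapped.

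Coactivators and corepressors that share these receptors were all tested, and of the 17 genes 11 rose and 2 fell, with a median of 0.38, and 76.5% passed against 66.6% of all probes. Ncoa2 (1.19, 2.28-fold) and Ncoa3 (0.86, 1.82-fold), steroid receptor coactivators, and Lpin1 (0.94, 1.92-fold), which binds PGC-1α and PPARα, had the largest rises (limma, adjusted p = 2.49e-07, 1.13e-08 and 5.63e-07). After normexp background correction 8 of the 17 passed, beside 10484 of all 21477 probes.

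Of 19 other receptors and transcription partners 15 were tested, 4 rose and 7 fell (73.3% passed, median -0.15). This share was near the 66.6% of all probes that passed. Mef2c, a MEF2 factor of differentiating muscle, was well above background in WT cells and on 0 HDAC4&5 arrays, and was at least 8.7-fold lower there (limma, adjusted p = 3.28e-08). Mef2d fell by 1.21 and Foxo1, which switches on fasting genes, rose by 1.24 (adjusted p = 5e-07 and 4.71e-10).

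Of 16 upstream regulators of PGC-1α, 15 were found on the array and 11 tested, of which 5 rose and 4 fell (81.8% passed, median 0.23). Across all probes 66.6% passed, 36.5% higher and 30.0% lower. Prkaa2, the muscle-rich catalytic subunit of AMPK, was not well above background on any WT array and was at least 5.86-fold higher in HDAC4&5 cells, while Prkaa1, the widespread subunit, fell by 0.64 (limma, adjusted p = 2.34e-10 and 8.98e-05). Camk2a, a calcium-dependent kinase, was not well above background in HDAC4&5 cells and was at least 1.82-fold lower there (adjusted p = 2.76e-06).

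**Figure D4:**
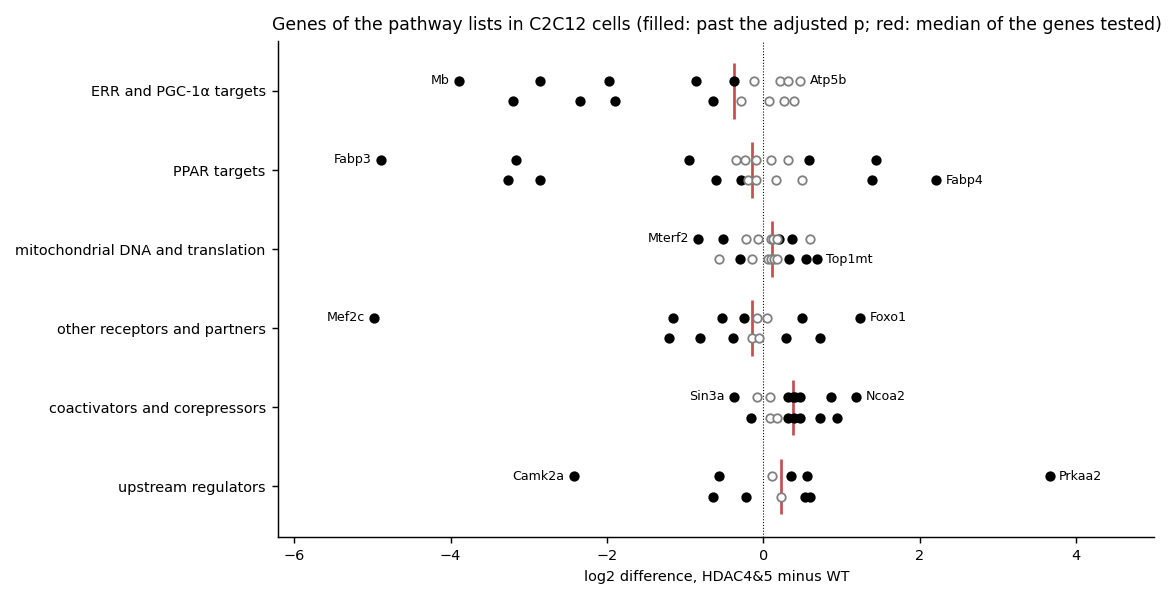
Difference in level between HDAC4&5 and WT C2C12 cells on a log2 scale (horizontal axis) for each tested gene of the 6 lists, by its brightest probe. Filled points passed the adjusted p of 0.05, red lines are medians of the genes tested and the genes at each end are named, and the ERR and PGC-1α target genes that passed all lie below 0 while 11 of the 13 coactivators and corepressors that passed lie above it.

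In soleus, none of the member probes differed between db and Con beyond the spread between arrays. Of the 18 probes 17 were tested and 0 passed, with 0 at an unadjusted p of 0.05 either in limma or in the methods' t-test, and with the slide as a block 0 passed and 1 had an unadjusted p under 0.05. Across all 18538 probes tested 0.0108% passed, or 0.183% with the slide as a block. An unadjusted p under 0.05 was found for 1287 of these probes in limma. The number was 1464 in the test of the methods and 3240 with the slide as a block. The groups overlapped at all 17 probes, while over all probes 10.6% did not overlap. The differences ran from -0.70 to 0.86 with standard errors of 0.30 to 0.66 (adjusted p from 0.79 to 0.996), and the number of arrays limits what could be seen.

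Ppargc1a probe 1 had levels of 3.04, 2.36 and 2.21 on the Con arrays and of 3.00, 2.59, 3.55 and 2.18 on the db arrays. The difference of 0.29 had a 95% interval from -0.67 to 1.25 (limma, adjusted p = 0.932), so it does not show that the groups are alike. Ppargc1b probe 1 read 3.59, 3.03 and 1.76 in Con and 2.85, 2.97, 3.05 and 2.14 in db muscle, a difference of -0.04 with an interval from -1.15 to 1.07.

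Pprc1 followed the slides. It read 1.09 and 0.99 on the Con arrays of 1 slide and -1.03 on that of the other, and 0.83 and 0.84 against -0.37 and -0.92 on the db arrays. The difference between groups was -0.26 ± 0.66, and 0.03 ± 0.26 with the slide as a block.

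Esrra probe 1 read 4.61, 5.22 and 5.63 in Con and 4.98, 4.84, 7.09 and 5.85 in db muscle (difference 0.53, interval -0.78 to 1.85), and without db replicate 3 the difference was 0.07. Esrrg probe 1 read 2.83, 3.05 and 2.48 in Con and 3.09, 2.17 and 2.91 on the 3 db arrays with a usable spot (difference -0.06, interval -0.99 to 0.87). Ppara read 0.33, 0.68 and -0.21 in Con and 0.16, 1.09, 1.24 and 0.72 in db muscle (difference 0.54, interval -0.36 to 1.43). In each the groups overlapped.

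The largest difference among the members was that of Nrf1 probe 1, which read -2.06, -2.17 and -1.27 in Con and -1.26, -1.95, -0.26 and -0.41 in db muscle. It came to 0.86 ± 0.49, with an interval from -0.25 to 1.98 (limma, adjusted p = 0.79), and to 0.68 with the slide as a block (adjusted p = 0.248). Probe 2 of the gene differed by -0.27 ± 0.30. Pparg read 0.88, 1.13 and 1.40 in Con and 0.83, 0.88, 2.10 and 1.66 in db muscle, a difference of 0.23 ± 0.41. Ppard was not well above background on any soleus array, and Tfam probe 3 read -0.86, -0.23 and -0.66 in Con and 0.46, -0.56, 0.09 and -0.16 in db muscle (difference 0.54 ± 0.36).

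Over the 6 lists 109 genes were tested in soleus and 0 passed in limma, with 5 at an unadjusted p of 0.05 and 7 in the methods' t-test, and 0 passed with the slide as a block. Among all 18538 probes tested, 1287 had an unadjusted p under 0.05 in limma and 1464 in the test of the methods. The list medians ran from -0.34 to 0.28, beside 0.18 for all probes. The -0.34 was that of the ERR and PGC-1α targets, and was -0.19 with the slide as a block. Several of these targets were very bright, such as Atp5b (8.02 in Con, 7.36 in db). Saturated spots were kept, and the part of saturation in this median was not tested. Of the 12 within-array pairs none passed (exact permutation test, two-sided, adjusted p = 0.684 at the lowest), but the smallest p that 3 arrays against 3 allow is 0.1 and that of 4 against 3 is 0.0286, so little could have passed over 12 pairs. Ppargc1b probe 2 minus probe 3 did not overlap, from 0.13 to 0.35 on 3 db arrays and from -0.79 to 0.09 on 3 Con arrays (exact permutation p = 0.1). Fat cell markers were present in soleus of both groups, with 7 of 8 tested, a summed level of 6.87 to 8.81 in Con and of 5.98 to 8.38 in db muscle, and Adrb3 not well above background on any array. Lep, which encodes leptin, was the 1 marker that passed, by 3.79 (limma, adjusted p = 0.0456), with all 4 db arrays and 1 of the 3 Con arrays well above background. This call was lost in 13 of 16 alternatives, among them normexp (1.8, adjusted p = 0.811), the replicate number as a block (3.8, adjusted p = 0.128) and each array left out in turn (adjusted p from 0.0681 to 0.598), and was kept with the slide as a block (adjusted p = 0.0115). In muscle, fewer cells of a type and less RNA per cell cannot be told apart.

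Control soleus and control C2C12 cells differed in most members. All 18 probes were tested and 15 passed, 11 higher and 4 lower in Con, against 73.7% of all 22638 probes (33.8% higher and 39.9% lower). Slide and tissue coincide here and cannot be told apart.

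Ppargc1a probe 1 was higher in Con than in WT by 5.52 ± 0.21, which is 45.7-fold, and probe 2 by 5.17 (limma, adjusted p = 2.77e-09 and 4.4e-08). In HDAC4&5 cells, where Ppargc1a had risen, its level of -1.54 ± 0.05 (SD, n = 6) was still below the 2.54 ± 0.44 (SD, n = 3) of Con muscle. The order of the group means of probe 1 was WT, HDAC4&5, Con and db, of which Con and db did not differ beyond their spread, while the HDAC4&5 and Con arrays, not tested against each other, did not overlap. Ppargc1b was higher in Con at all 3 probes, by 1.03, 0.92 and 2.45 (adjusted p = 0.0165, 0.000872 and 1.94e-06). Probe 1 did not pass without Con replicate 1 (0.63, adjusted p = 0.0839) or Con replicate 2 (0.92, adjusted p = 0.0647), came to 1.55 without Con replicate 3, and gave 0.08 when arrays were centred on their median, where probe 2 gave -0.03. Pprc1 was 5.55-fold lower in Con (-2.47, adjusted p = 0.00023).

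Esrrg and Ppara set the tissue apart from the cell line. Esrrg probe 1 was well above background on all 3 Con arrays and on 0 of the 6 WT arrays, and was at least 323-fold higher in Con (limma, adjusted p = 2.46e-09). Ppara was at least 56.2-fold higher (adjusted p = 3.21e-10), and both folds are limits, set by the dimmest probe that each WT array still read well above background. These limits rest on the processing, since the fitted differences of 10.15 and 7.55 came to 6.1 and 3.74 after normexp background correction and to 9.2 and 6.6 when arrays were centred on their median, and all passed. Probe 2 of Esrrg was well above background on all 6 WT arrays and on the 2 Con arrays with a usable spot, and was higher in Con by 2.71 ± 0.25, which is 6.55-fold (adjusted p = 7.4e-06). The 250 bases before a RefSeq start of Esrrg (GRCm38, plus strand, chr1:187608756-187609005) are shown because this gene had the largest difference, with CTATTTATAG, a match to CTANNNNTAG on both strands, in capitals 22 to 13 bases before the start.
Esrrg: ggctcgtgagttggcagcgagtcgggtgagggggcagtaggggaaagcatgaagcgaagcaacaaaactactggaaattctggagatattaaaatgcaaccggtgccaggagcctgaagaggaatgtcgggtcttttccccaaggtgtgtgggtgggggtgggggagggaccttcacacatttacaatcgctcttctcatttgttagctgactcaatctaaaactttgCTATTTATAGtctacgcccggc
Of all windows 3.2% hold CTANNNNTAG. GCATGCGC, the core letters of an NRF1 site, was in the windows of Esrra, 34 to 27 bases before the start, and of Ppara, as it was in 2.26% of all windows. AAGGTCA, the core letters of an ERR site, was in none of the 15 windows of 9 member genes and in 4.08% of all windows. These matches are letters and say nothing of binding.

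Esrra was higher in Con by 1.98 at probe 1 and by 0.46 at probe 2 (limma, adjusted p = 9.59e-06 and 0.0382), the latter not passing without Con replicate 1 (0.33, adjusted p = 0.127). Pparg was lower by 1.32, Nrf1 lower by 0.99 and 1.74 at its probes, and Tfam probe 3 higher by 0.52 (adjusted p = 3.69e-05, 0.00255, 7.67e-07 and 0.0119). After normexp Nrf1 probe 1 came to -0.30 and did not pass (adjusted p = 0.14). Ppard, which was not well above background in Con, and Tfam probes 1 and 2 did not pass. When arrays were centred on their median, which moved the median difference of all probes from -0.17 to -1.12, Esrra probe 2 and Tfam probe 3 changed sign, and the share of calls that were higher in Con went from 45.8% to 25.8%, beside 59.0% after normexp and 72.2% without the filter on dim probes. All 19 ERR and PGC-1α target genes were higher in Con, with a median of 2.84. So were 19 of 25 tested PPAR target genes, with a median of 4.77. Of all probes 33.8% were higher. Some ERR and PGC-1α targets were very bright, such as Cs (8.1 in Con, 6.31 in WT) and Mdh2 (8.2 and 6.58). Saturated spots were kept, and the part of the scanner's limit and the scaling in these differences was not tested.

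The genes whose brightest probe followed Ppargc1a probe 1 most closely over the arrays, among 11283 genes well above background on at least 16 arrays, were Map2k6 (Pearson r = 0.993 over 19 arrays), Gdf1 (0.993), Asrgl1 (0.992 over 18), Mcrip2 (0.992) and Ablim3 (0.991 over 16). Gdf1 shares a transcript with Cers1. The arrays fall in tissue and cell line, which sets much of each r, and within the soleus arrays r was 0.754, 0.587, 0.377, 0.841 and -0.52 for these genes in turn. Within the C2C12 arrays, which fall in WT and HDAC4&5, r was 0.95, 0.966, 0.977, 0.942 and 0.94. Of the other members, Esrra had an r of 0.881, Ppargc1b 0.68, Nrf1 -0.387, Pparg -0.651 and Pprc1 -0.847, while Esrrg, Ppara, Ppard and Tfam did not meet the limit on arrays.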

How the data were processed

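RNA of 12 C2C12 and 7 soleus samples was labelled with Cy3 from 100 ng of total RNA and hybridised to 1 array each. The authors scanned the arrays with Agilent Feature Extraction 9.5.1.1 and deposited 3 kinds of intensity for each spot, its mean, its local background and a processed signal, which has the background and spatial trend removed and no scaling across arrays. In the authors' deposited matrix each value is the ratio of that signal to a constant of its array, and the matrix served, by group, as an alternative. Coordinates are those of the files (mm9).

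From the scanner files, spots marked as outliers and control spots were left out, spots of a probe were averaged, and the log2 of the processed intensity minus that of the array's 75th percentile was taken. Spots marked as saturated were kept. No usable member value was marked as saturated. RefSeq accessions named 27297 probes, 13877 kept the name of the files, and 2734 symbols changed. Probes that all arrays of 1 group or the other read well above background were tested with limma 3.58.1 in R 4.3.3 (data.table, version 1.17.8), with Benjamini-Hochberg adjustment over all probes tested and a threshold of 0.05. Levels, exact permutation tests, searches of RefSeq promoter windows (GRCm38) and plots were made with Python 3.11.15, numpy 2.4.6, pandas 2.3.3, scipy 1.17.1 and matplotlib 3.10.9.

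The groups were those of the labels. The members and lists were chosen with earlier results of these data known. Named were all members, the 3 largest changes of each list among genes that passed in C2C12 cells and were above background throughout the higher group, list genes that passed in soleus (0), the 5 genes most like Ppargc1a, Hdac4 and Hdac5, and markers that bear on a member. Alternatives were quantile normalization, normexp with an offset of 50, centring on the array median, no filter, a stricter filter, 1 probe per gene, the deposited matrix, the slide or the replicate number as a block, the methods' t-test, each replicate left out, and arrays averaged by slide, the last chosen after the data were seen.

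Replicate numbers were checked for pairing. After the group means were taken off, arrays of the same number were correlated across probes at 0.367 to 0.704 in C2C12 cells (6 pairs) and 0.445 to 0.731 in soleus (3 pairs). Other arrays of the same slide did so too (0.356 to 0.717 and 0.359 to 0.803), which means that a number also stands for a slide. Within a group, arrays had a Pearson correlation across probes of at least 0.989 in C2C12 cells and 0.868 in soleus, and the number of arrays limits the precision. The fits were tested on simulated data, drawn independently for each array and so without the likeness of arrays on 1 slide. Rates in the real data may differ for that reason. In the simulations 200 probes were given a log2 change of 2. In the C2C12 simulation (21477 probes) 98.5% of these passed, and unchanged probes made up 5.74% of what passed, in the soleus simulation (18538 probes) 27.0% and 10.0%, and in that of Con against WT (22638 probes) 72.0% and 7.69%.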

Additional observations from a re-analysis of the deposited data

Results flagged for a closer look

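A single array stood apart from the rest of its group at 3 member probes, in 4 of the 44 groups of values with 4 to 6 arrays that were examined, where about 2.2 would be expected at 1 in 20. Ppargc1b probe 3 read -0.50 in WT replicate 5, against -0.74 for the nearest WT array, and -0.30 in db replicate 1, against 1.34 for the nearest db array. The latter array carries the lower level of db at that probe, where probe 1 of the gene read 2.85, within the range of the other db arrays, and the spot of probe 2 was left out. Tfam probe 2 read 3.82 in HDAC4&5 replicate 6, against 2.79 for the nearest array, and Tfam probe 3 read -1.94 in HDAC4&5 replicate 3, against -1.55.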

How the results depend on the processing

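In C2C12 cells the 12 member probes that passed gave 271 values under the alternatives, of which 267 kept direction and side of the threshold, 4 no longer passed and 0 reversed. With 1 probe per gene 9485 of the features tested passed in C2C12 cells, and without a filter on dim probes 32525 passed between Con and WT, the number tested having changed. Ppard gave 0.64 after normexp and no longer passed, and Tfam probe 1 no longer passed without the filter (-0.25) or with arrays averaged by slide (-0.22). Nrf1 probe 1 was -0.15 with the slide or the replicate block and passed with either. After normexp 8 coactivators and corepressors and 4 mitochondrial DNA genes passed, and with the slide as a block 14 of the latter, in place of 13 and 8. Of all 21477 probes 10484 passed after normexp and 16390 with the slide as a block, in place of 14293. Within single C2C12 slides Pprc1 was 0.71 and Ppard 0.14 on the second, Ppargc1b probe 3 -1.42 and -1.08, Nrf1 probe 2 0.83 and 0.59 and Tfam probe 3 -0.20 and -0.61 on the first and second, and Tfam probe 1 -0.32 on the first. The cause was not tested.

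In soleus 2 probes passed of all tested. The number was 1 with the array median, without the filter and with the replicate block, 0 with the deposited matrix, normexp and the stricter filter, 34 with the slide as a block, 1464 when the methods' t-test was left unadjusted, and 0 to 1 with a replicate left out. No member passed under the replicate block (adjusted p of 0.334 or more) or the slide block, and in C2C12 cells the replicate block changed no other member call than those of Esrra probe 2 and Nrf1 probe 1.

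Members of soleus that did not pass changed sign as follows, in log2 differences. Ppargc1a probe 2 was 0.04 with the deposited matrix, 0.14 with the replicate block, 0.08 with the slide block and -0.42 to 0.32 with a replicate left out. Ppargc1b probe 1 was 0.10, 0.17, 0.10 and -0.56 to 0.36 in the same order, and probe 2 was -0.04 with the deposited matrix. Pprc1 was 0.08 with the replicate block, 0.03 with the slide block and -0.95 to 0.11 with a replicate left out. Esrra probe 2 was -0.03 with the array median, -0.17 after normexp and -0.09 to 0.16 with a replicate left out, Esrrg probe 1 was 0.26 with the deposited matrix, 0.09 after normexp and -0.24 to 0.22, and Pparg -0.02 to 0.41. Tfam probe 2 was 0.26 with the deposited matrix, 0.16 after normexp, 0.13 with the replicate block and -0.23 to 0.34 with a replicate left out, and in C2C12 cells -0.26 to 0.10.

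Between Con and WT, centring on the array median gave -0.03 for Ppargc1b probe 2, -0.49 for Esrra probe 2, -0.86 for Ppard, -0.64 for Tfam probe 1 and -0.43 for Tfam probe 3. Ppard was -0.96 after quantile normalization and -0.32 to 0.40 with a replicate left out, and Tfam probe 1 -0.30 to 0.73.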
